A study of Cricetulus griseus with 8 samples.

Results

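Transcripts of NF-kB subunits and of the proteins that hold NF-kB in check were followed in LR73, a fibroblast line of the Chinese hamster that serves here as the phagocyte, with and without apoptotic prey. The set was defined by gene symbol and was chosen with earlier results of these data known. It lists 10 genes. They are the subunits Nfkb1, Nfkb2, Rela, Relb and Rel, the IkB genes Nfkbia, Nfkbib and Nfkbie, and the inhibitors Tnfaip3 and Tnip1. Of these, 9 were matched among the 26776 named genes of the deposited table, and Nfkb1 was not analysed here. The 2 conditions were compared with 4 libraries each: LR73 cells alone, and LR73 cells cultured with apoptotic Jurkat cells, a human T cell line. The Jurkat cells had received UV-C light at 1500 mJ and were then held in culture for 4 h before they met the phagocytes. Both conditions used alpha-MEM with serum, and no genetic change or drug is named in the labels. The design text calls the libraries biological replicates without saying how cultures were separated, so the p-values measure the spread between these libraries.

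NF-kB is a family of transcription factors that bind DNA as pairs of Rel proteins. In resting cells most pairs are held in the cytoplasm by IkB proteins. In the canonical branch, receptors for TNF, IL-1 or microbial products activate the IKK kinases, IkB is degraded and pairs that contain RelA or c-Rel enter the nucleus. In the noncanonical branch, the kinase NIK brings about the processing of the Nfkb2 precursor, and the product acts together with RelB. Genes for IkB-alpha, IkB-epsilon, A20, RelB and the Nfkb2 precursor are themselves known NF-kB targets, which gives the pathway its feedback. In fibroblasts the pathway is known for the control of chemokines, adhesion molecules and survival genes.

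Named genes took 22.7 to 29.7 M (mega) reads per library. Values are given as normalized counts, which are reads divided by the authors' size factor for each library. Alone library 1 stood apart: it lay at -25.1 on principal component 1 (36.8% of the variance), against -9.13 to -5.65 for the other libraries of cells alone and 9.82 to 13.6 for the co-cultures. Results that rest on it are therefore given with and without it. Among 14 fibroblast markers in the table, Vim had a mean of 111964 normalized counts in cells alone and Fn1 of 31773, while Thy1 had no reads and Col1a1 at most 1.90 normalized counts in any library. Of 12 epithelial markers, 5 had no reads, the keratins Krt18, Krt19 and Krt14 among them, while Cdh1 had a mean of 242 normalized counts in cells alone and Krt5 of 82.1. The T cell markers in the table summed to 1514 to 1610 normalized counts in cells alone and 1369 to 1430 in the co-cultures. Tcf7, Themis and Lat had the largest means among them, at 677, 631 and 204 normalized counts in cells alone. Of these 29 T cell markers in the table, 22 had 5 or fewer reads in all alone libraries together. These 22 summed to 0 to 5 reads per alone library and 17 to 27 reads per co-culture library. Since they were picked by low reads in cells alone, part of this difference may come from the choice. Of the 22, 14 had more reads in the co-cultures than in cells alone and 1 had fewer. Lef1 went from 3 to 24 reads in total and Lck from 0 to 9. Cd3d, Cd3g and Cd2 were among 7 T cell markers with 0 reads in all 8 libraries, which allows up to 3 reads in each. The part of Jurkat RNA in the results was not tested.

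With apoptotic cells, 3 of the 9 genes fell, 1 rose and 5 did not pass the test. Relb, the Rel protein of the noncanonical branch, fell by 23.1%, Nfkbie, the gene of IkB-epsilon, fell by 17.2%, and Nfkb2, the precursor of the RelB partner, fell by 9.01%. Tnfaip3, the gene of the feedback inhibitor A20, rose by 17.4%. A gene was called at a Benjamini-Hochberg adjusted p under 0.05 by limma over all 13494 tested genes, of which 6.36% were called higher and 5.31% lower. The groups did not overlap in 4 of the 9 genes, the same 4 that were called, where 21.2% of all tested genes showed no overlap. Since the genes were chosen with earlier results known, these counts are not an independent comparison with all genes. The same 4 were called without alone library 1, 1 higher and 3 lower, against a background of 13.4% higher and 12.5% lower. The median log2 fold change of the 9 genes was -0.03, and that of all tested genes 0.001. The median change was 16.97% among all genes called higher and -16.6% among all called lower. Tnfaip3 and Nfkbie lay near these medians, while Relb fell further and Nfkb2 less.

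**Figure D1:**
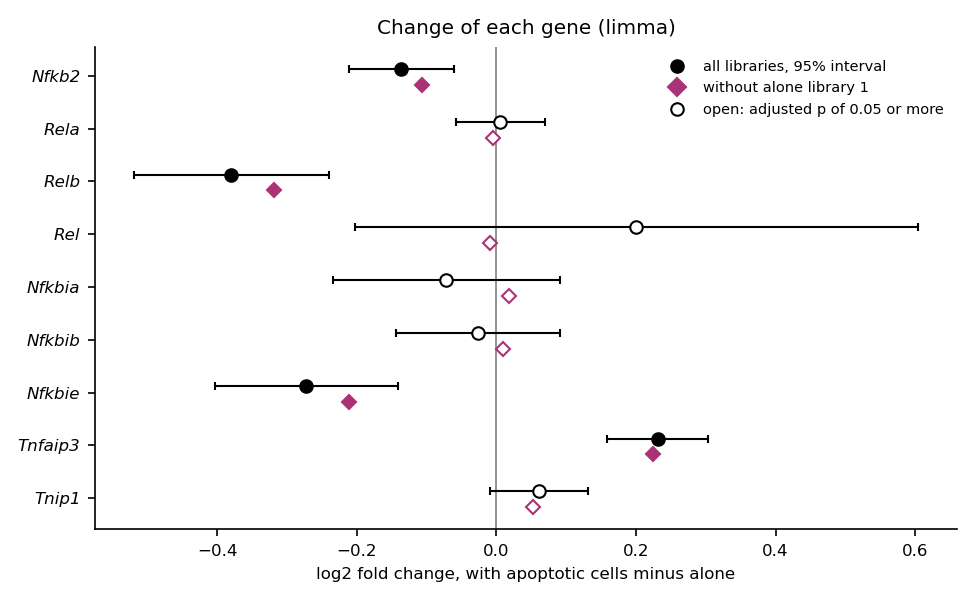
Log2 fold change (with apoptotic cells minus alone, x axis) of each of the 9 genes by limma; circles with 95% intervals use all 8 libraries and diamonds leave out alone library 1. Filled symbols mark an adjusted p under 0.05: Relb (-0.38), Nfkbie (-0.27), Nfkb2 (-0.14) and Tnfaip3 (0.23) are filled in both fits, while Rel moves from 0.20 to -0.01.

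Among the subunits, Relb and Nfkb2 of the noncanonical branch were both lower with apoptotic cells. Relb read 1474, 1287, 1227 and 1221 normalized counts in the 4 alone libraries and 1014, 1037, 936 and 1007 in the co-cultures. Every co-culture lay below every alone library. The means were 1302 ± 118 and 999 ± 43.5 (SD, n = 4 each), or -0.38 on the log2 scale with an SE of 0.06 (95% interval -0.52 to -0.24, adjusted p = 0.00407 by limma). This was the largest fall among the 9 genes. Without alone library 1, the highest of its group, Relb still fell by 0.32 on the log2 scale (limma adjusted p = 2.47e-06).

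Nfkb2 encodes the long precursor whose processed form joins RelB, and whose uncut form can act as an inhibitor of Rel proteins. It read 21110, 19295, 19664 and 19423 normalized counts in cells alone and 18128, 18139, 17803 and 18213 in the co-cultures. The groups did not overlap, and the 4 co-cultures varied by only 1.01% around their mean (coefficient of variation), compared with 4.22% in cells alone. The means were 19873 ± 839 and 18071 ± 182 (SD, n = 4 each), or -0.14 on the log2 scale with an SE of 0.03 (adjusted p = 0.0270 by limma). It was the call nearest to the threshold. Among the left-out libraries and the filters, it was lost without alone library 3 (limma adjusted p = 0.0696), without any 1 co-culture library (0.0706 to 0.0843) and when no filter on low genes was used (0.0520).

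The subunits Rela and Rel of the canonical branch did not pass the test, and the subunit Nfkb1 was not analysed here. Rela, which encodes the main transactivating subunit p65, read 7112, 7167, 7381 and 7373 normalized counts in cells alone and 7358, 7398, 7174 and 7215 in the co-cultures. The groups overlapped, and the difference was small with a narrow interval: 0.01 on the log2 scale with an SE of 0.03 (95% interval -0.06 to 0.07, adjusted p = 0.921 by limma). On the percent scale the interval ran from -3.97% to 4.93%. Its sign turned, at sizes under 0.01, with several of the alternatives.

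Rel, which encodes c-Rel and is known mainly from lymphocytes, was the most variable of the 9. It read 118, 233, 214 and 190 normalized counts in cells alone and 209, 241, 190 and 204 in the co-cultures, from 124 to 279 reads per library. Alone library 1 was lower than every other library, and the remaining alone libraries lay in the range of the co-cultures. The log2 fold change was 0.20 (SE 0.18, 95% interval -0.20 to 0.60, limma adjusted p = 0.512) with all libraries and -0.01 (SE 0.09, limma adjusted p = 0.954) without alone library 1. No change of Rel was detectable at this spread.

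The 3 IkB genes differed in their values. Nfkbie, which encodes IkB-epsilon, an inhibitor known for holding RelA and c-Rel pairs, read 1901, 1537, 1666 and 1606 normalized counts in cells alone and 1359, 1397, 1406 and 1378 in the co-cultures. All co-cultures lay below all alone libraries. The means were 1678 ± 158 and 1385 ± 20.8 (SD, n = 4 each), or -0.27 on the log2 scale with an SE of 0.06 (95% interval -0.40 to -0.14, adjusted p = 0.0156 by limma). It was -0.21 without alone library 1 (limma adjusted p = 7.78e-05), and the call was lost without co-culture library 1 (limma adjusted p = 0.0566). The limma adjusted p lay just under the threshold without alone library 3 (0.047) or co-culture library 2, 3 or 4 (0.0468 to 0.0491).

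Nfkbia, which encodes IkB-alpha, the inhibitor that is broken down first after receptor stimulation and rebuilt by NF-kB itself, read 5173, 3960, 4077 and 4057 normalized counts in cells alone and 4076, 4102, 4125 and 4027 in the co-cultures. Apart from alone library 1, all 7 libraries lay between 3960 and 4125. The log2 fold change was -0.07 (SE 0.07, 95% interval -0.23 to 0.09, limma adjusted p = 0.565), and 0.02 (SE 0.03, limma adjusted p = 0.655) without that library. The SD of the alone libraries was 573 normalized counts with it and 62.4 without it.

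Nfkbib, which encodes IkB-beta, a slower-acting IkB, read 513, 463, 470 and 460 normalized counts in cells alone and 474, 446, 473 and 477 in the co-cultures. The groups overlapped. The log2 fold change was -0.03 (SE 0.05, 95% interval -0.14 to 0.09, limma adjusted p = 0.784) and 0.01 without alone library 1 (limma adjusted p = 0.924). Whether Nfkbie differed from the other IkB genes in its change was not tested.

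The products of Tnfaip3 and Tnip1 act upstream of the IkB proteins. Tnfaip3 encodes A20, which edits ubiquitin chains on signalling proteins such as RIPK1 and so ends the activation of IKK. It read 2134, 2134, 2183 and 2195 normalized counts in cells alone and 2627, 2531, 2489 and 2501 in the co-cultures. Every co-culture lay above every alone library, and neither group had a library far from the others. The means were 2161 ± 32.0 and 2537 ± 62.5 (SD, n = 4 each), or 0.23 on the log2 scale with an SE of 0.03 (95% interval 0.16 to 0.30, adjusted p = 0.00182 by limma). It had the smallest p of the 9 genes, rank 209 of 13494, and without alone library 1 the change was 0.22 (limma adjusted p = 4.34e-06).

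Tnip1 encodes ABIN1, which binds A20 and ubiquitin chains. It read 3380, 3452, 3558 and 3356 normalized counts in cells alone and 3623, 3529, 3615 and 3567 in the co-cultures. Alone library 3 lay within the range of the co-cultures and the other alone libraries below it. The log2 fold change was 0.06 (SE 0.03, 95% interval -0.01 to 0.13, limma adjusted p = 0.254), which did not pass the test, and 0.05 without alone library 1 (limma adjusted p = 0.174).

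**Figure D2:**
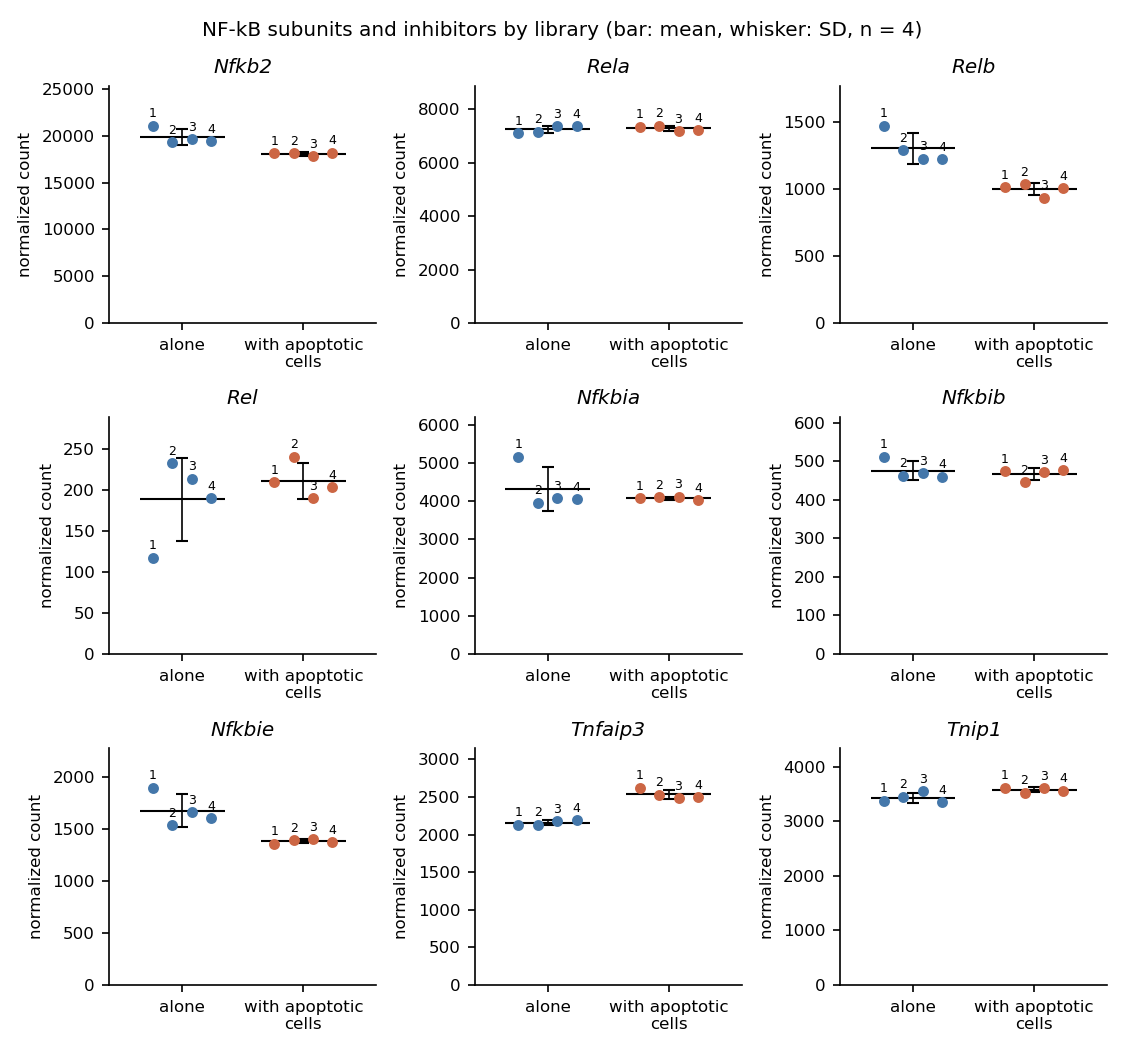
Normalized counts (y axes start at 0) of the 9 genes in each library, with library numbers beside the points, the mean as a bar and the SD as a whisker (n = 4 per group). Relb, Nfkb2, Nfkbie and Tnfaip3 show no overlap between the groups, and alone library 1 is the highest point of Nfkbia (5173) and the lowest of Rel (118).

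Alone library 1 was the highest of its group in 5 of the 9 genes and the lowest in 3. On the log2 scale it stood 0.36 above the mean of the other alone libraries for Nfkbia, 0.25 above for Nfkbie, 0.24 above for Relb, 0.14 above for Nfkbib and 0.12 above for Nfkb2, and 0.84 below for Rel. For Tnfaip3, Tnip1 and Rela it lay within 0.04 of them. Of all tested genes, 1.82% deviated at least as far in this library as Rel, 17.1% as far as Nfkbia and 32.3% as far as Nfkbie, and the median size of the deviation over all tested genes was 0.17. For Relb, Nfkbie and Nfkb2 this library lay on the side that widens the difference from the co-cultures. The fall of each was smaller without it, at -0.32, -0.21 and -0.11 on the log2 scale, and all passed.

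The authors' deposited table called the same 4 of the 9 genes. Its adjusted p was 1.59e-06 for Tnfaip3, 8.28e-06 for Relb, 0.00156 for Nfkbie and 0.00951 for Nfkb2 in the authors' deposited table. The next smallest there was that of Tnip1, at an adjusted p of 0.353 in the authors' deposited table.

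The genes whose log2 values ran most like those of Tnfaip3 across the 8 libraries were Pa2g4, a growth-regulated RNA-binding protein (Pearson r = 0.992), Sept5, a septin of the cytoskeleton (0.990), and Kif4a, a mitotic kinesin (0.990). They were the nearest among all 13494 tested genes with a symbol that is not a placeholder. The difference between the 2 groups is part of this likeness. The log2 fold changes of these genes were 0.16, 0.27 and 0.35 beside 0.23 for Tnfaip3.

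Receptors, adaptors and kinases of the pathway were called at a share near the background, 8.70% of the list beside 11.7% of all tested genes in both directions together. Of 46 tested in a list of 56, 2 rose, 2 fell and 42 did not pass, with a median log2 fold change of -0.001. Tnfrsf1b, the TNF receptor TNFR2, went from 926 ± 22.1 to 710 ± 18.1 normalized counts (SD, n = 4 each), or -0.38 on the log2 scale with an SE of 0.04 (adjusted p = 0.000309 by limma). Its alone libraries lay between 899 and 948 and its co-cultures between 694 and 736, and it passed whichever library was left out. Traf2, an adaptor of TNF receptors that also restrains NIK, fell by 0.16 (limma adjusted p = 0.0262). Irak2, a kinase of IL-1 and Toll-like receptors, rose by 0.22 (limma adjusted p = 0.0265) and Ripk1, the kinase that A20 edits, by 0.15 (limma adjusted p = 0.0449). The last call was lost without any 1 library other than alone library 1 (limma adjusted p = 0.0556 to 0.128), under TMM scaling (0.0518) and with no filter (0.0575). Traf2 no longer passed when alone library 3 or co-culture library 2, 3 or 4 was dropped (0.0656 to 0.0849), and Irak2 when alone library 2 or co-culture library 1, 2 or 4 was (0.0558 to 0.0867).

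The TNF receptor Tnfrsf1a and the IKK genes did not pass. Chuk, which encodes IKK-alpha, stood at 4124 ± 66.8 and 4110 ± 78.3 normalized counts (SD, n = 4 each), or -0.005 on the log2 scale (95% interval -0.07 to 0.06, limma adjusted p = 0.933). Ikbkb, for IKK-beta, stood at -0.08 (adjusted p = 0.238 by limma) and Ikbkg, for the scaffold NEMO, at 0.02 (adjusted p = 0.918 by limma), or -0.07 without alone library 1. Tnfrsf1a stood at -0.07 (adjusted p = 0.269 by limma). Map3k14, the gene of the noncanonical kinase NIK, was singled out after its values were seen and did not pass. It stood at 0.03 (adjusted p = 0.781 by limma), or -0.03 without alone library 1. The list held 7 genes called higher and 9 called lower without alone library 1, a fit in which 13.4% of all genes were called higher and 12.5% lower.

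Of 28 tested genes in a list of 36 other negative regulators, none rose, 3 fell and 25 did not pass, with a median log2 fold change of -0.07. The called share of 10.7% was near the background of 11.7%. At the same threshold edgeR and DESeq2 also called none higher. At an unadjusted p under 0.05 by limma, 1 gene of the list was higher and 6 were lower. Of all 13494 tested genes, 1842 were higher and 1729 lower at that level. Cyld, a deubiquitinase that removes the chains that drive IKK, went from 889 ± 34.6 to 780 ± 37.0 normalized counts (SD, n = 4 each), or -0.19 on the log2 scale with an SE of 0.05 (adjusted p = 0.0328 by limma). The groups did not overlap, yet the call was lost on dropping any 1 library except alone library 1 and co-culture library 4 (limma adjusted p = 0.0669 to 0.105). Trim21, a ubiquitin ligase and antibody receptor, fell by 0.30 (limma adjusted p = 0.0367), and kept its call only without alone library 1 among the left-out libraries (0.0508 to 0.109 in the others); it also lost its call by DESeq2 (adjusted p = 0.0943) and with no filter (limma adjusted p = 0.0730). Ptpn6, the phosphatase SHP-1, fell by 0.78 from 29.8 ± 4.93 to 16.9 ± 2.28 normalized counts (SD, n = 4 each, adjusted p = 0.0182 by limma), a call lost without alone library 4 (0.0528) or co-culture library 1 (0.0566). Nfkbiz, an atypical nuclear IkB, had means of 143 ± 13.1 and 152 ± 9.85 normalized counts, 0.09 on the log2 scale (adjusted p = 0.530 by limma). Bcl3, another nuclear IkB, was too low to be tested, at means of 10.9 and 7.60 normalized counts. When alone library 1 was dropped, this list held 1 gene called higher and 6 called lower, beside 13.4% and 12.5% of all genes.

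Genes known as NF-kB targets changed in both directions. Of 33 tested in a list of 50, 4 rose, 5 fell and 24 did not pass, with a median log2 fold change of -0.03. Called genes were 27.3% of the list, with a background of 11.7% among all tested genes in both directions together. The list was written with earlier results of these data known, so the 2 shares are not an independent comparison. Tnc, the matrix protein tenascin-C, went from 148 ± 12.8 to 222 ± 11.1 normalized counts (SD, n = 4 each), or 0.58 on the log2 scale with an SE of 0.08 (adjusted p = 0.00144 by limma). Ier3, an immediate early survival gene, rose by 0.52 (SE 0.08), Cd44, the hyaluronan receptor, by 0.28 (SE 0.03) and Lif, a cytokine of the IL-6 family, by 0.18 (SE 0.04) on the log2 scale. The adjusted p by limma was 0.00268 for Ier3, 0.000265 for Cd44 and 0.0190 for Lif. Without alone library 1 the log2 fold changes were 0.54 for Tnc, 0.61 for Ier3, 0.27 for Cd44 and 0.21 for Lif.

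Among the target genes that fell, Vcam1, the vascular cell adhesion molecule, went from 112 ± 14.8 to 75.3 ± 6.43 normalized counts (SD, n = 4 each), or -0.56 on the log2 scale with an SE of 0.11 (adjusted p = 0.0113 by limma). Irf1, an interferon regulatory factor, fell by 0.27, Plk2, a polo-like kinase, by 0.24 and Fas, the death receptor, by 0.22 on the log2 scale. Bcl2l1, the survival gene of BCL-XL, was singled out after its values were seen and fell by 0.16 (limma adjusted p = 0.0259). Icam1, an adhesion molecule, read 8319 to 8681 normalized counts in cells alone and 7748 to 8185 in the co-cultures. Its groups did not overlap, but its log2 fold change of -0.10 did not pass (adjusted p = 0.0657 by limma), and passed without alone library 1 (0.00168). Cxcl1, a neutrophil chemokine, read 1223, 882, 947 and 851 normalized counts in cells alone and 972, 987, 1025 and 978 in the co-cultures. Its log2 fold change was 0.04 (adjusted p = 0.836 by limma), and 0.15 without alone library 1 (adjusted p = 0.0109 by limma). Ccl2 was not analysed here. Tnf, Il1b and Il1a had 0 reads in all 8 libraries, which allows up to 3 reads in each.

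The calls of target genes also moved with single libraries. When alone library 1 was dropped, 6 target genes were called higher and 11 lower, while the shares over all genes went from 6.36% to 13.4% higher and from 5.31% to 12.5% lower. Lif no longer passed on dropping alone library 3, alone library 4, or the first or second co-culture (limma adjusted p = 0.0534 to 0.0661), Fas without co-culture library 2, 3 or 4 (0.0509 to 0.0680), and Irf1 without alone library 4 or co-culture library 2, 3 or 4 (0.0594 to 0.0744). Tnc, Ier3, Cd44, Plk2 and Vcam1 passed whichever library was left out.

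**Figure D3:**
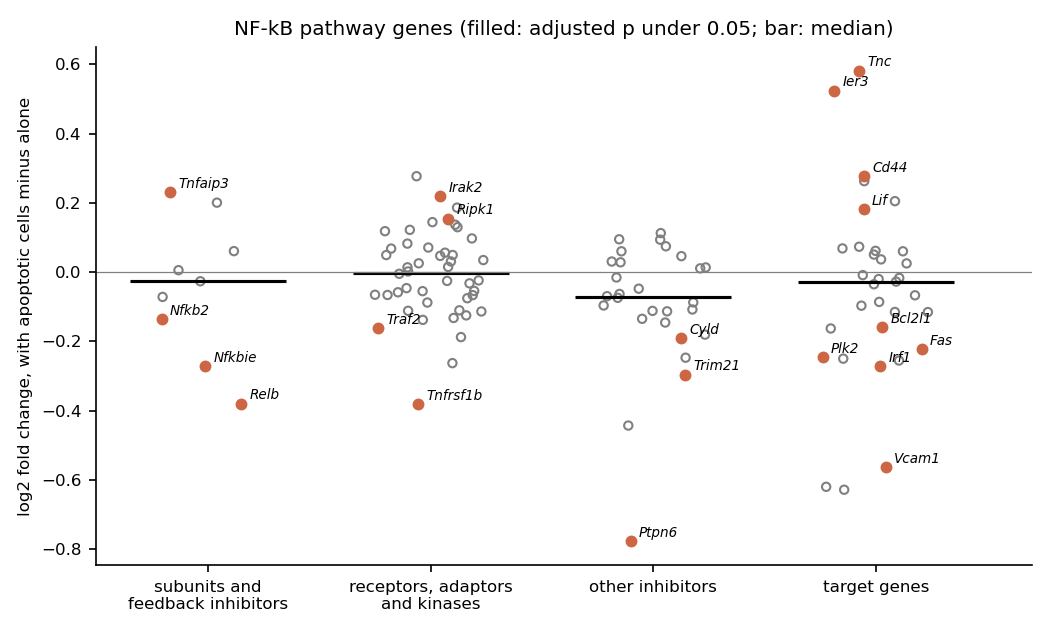
Log2 fold change (with apoptotic cells minus alone, y axis) of each tested gene in 4 lists: subunits and feedback inhibitors, receptors with adaptors and kinases, other inhibitors, and target genes. Filled points have a limma adjusted p under 0.05 and bars are medians; medians lie between -0.07 and -0.001, and called target genes lie on both sides of 0, from Vcam1 at -0.56 to Tnc at 0.58.

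Of the 4 called genes, Tnfaip3 and Relb passed under all 16 alternative settings, with adjusted p-values up to 0.0181 for Tnfaip3 and 0.0192 for Relb. Nfkbie passed under 15 and Nfkb2 under 9. The log2 fold change of Tnfaip3 ran from 0.21 to 0.24 over these settings, that of Relb from -0.41 to -0.31, that of Nfkbie from -0.31 to -0.21 and that of Nfkb2 from -0.15 to -0.11. None of the other 5 genes passed under any of the 16. Among these 5, the smallest adjusted p was 0.174, for Tnip1 without alone library 1.

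**Figure D4:**
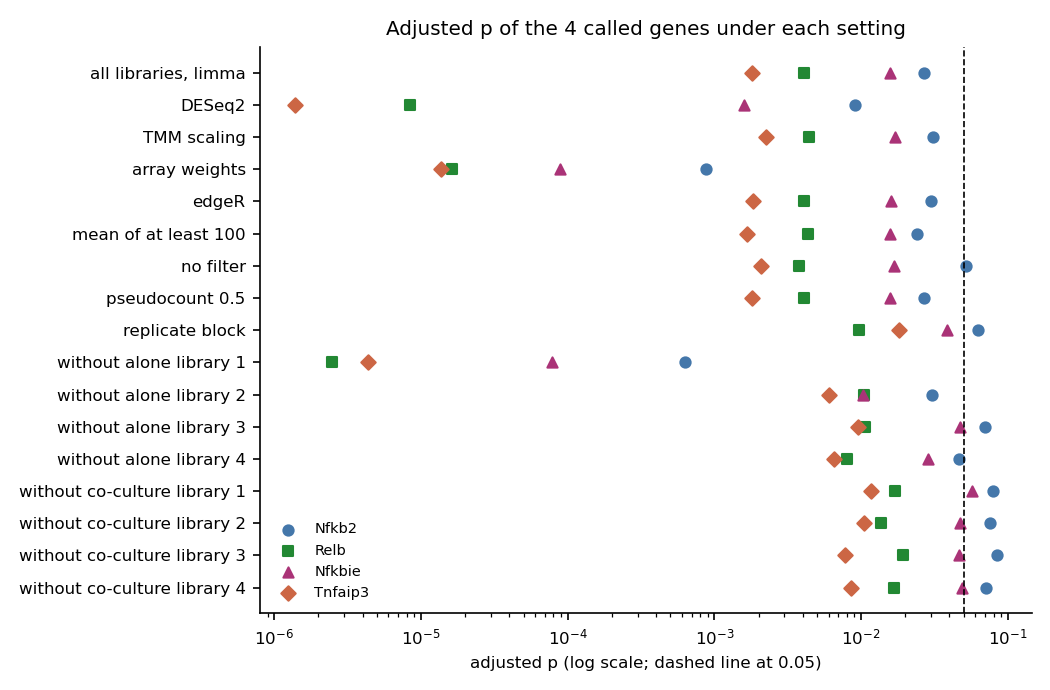
Adjusted p (x axis, log scale) of Nfkb2, Relb, Nfkbie and Tnfaip3 with all libraries and under each of the 16 other settings (rows), with a dashed line at 0.05. Relb and Tnfaip3 stay left of the line throughout, Nfkbie crosses it once (0.0566) and Nfkb2 crosses it in 7 settings.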

How the data were processed

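RNA was sequenced from 4 libraries of LR73 cells alone and 4 of LR73 cells with apoptotic Jurkat cells. STAR, featureCounts and DESeq2 are named in the submitters' processing notes. Not given in the sources used here are the build, annotation, strand setting and handling of human reads. The authors deposited a signal per library that behaves as gene counts over a size factor. Whole reads were recovered in 100% of values within 0.01 reads. Column names in the deposited table begin with GFP, which the labels do not explain. They were matched to the samples by the letters AC, for apoptotic cells, and the replicate number. A row without a gene name (0.140 to 0.176% of reads) was left out. The authors' deposited log2 fold changes, test scores and p-values served only for comparison.

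Genes averaging 10 or more normalized counts were tested by limma 3.58.1 (R 4.3.3) on log2(normalized count + 1), a scale that understates the change of low genes, with Benjamini-Hochberg adjustment over all of them. Alternatives were edgeR 4.0.16 and DESeq2 1.42.0 on the recovered reads, which are count tests, TMM scaling, another pseudocount (0.5), other filters, array weights, a replicate block and leaving out each library. The limma step was checked on simulated counts that held no deviating library, so the check does not bear on the effect of alone library 1. Figures were drawn with matplotlib 3.10.9.

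Named were all members found, up to 4 called genes per direction of each list with the smallest adjusted p, 10 genes regardless of values (Chuk, Ikbkb, Ikbkg, Bcl3, Nfkbiz, Cyld, Ccl2, Cxcl1, Icam1, Tnfrsf1a) and the 3 genes most like the member with the smallest p. The members and lists were chosen with earlier results of these data known. Lists of T cell, myeloid, epithelial and fibroblast markers were described only. Myeloid markers summed to 65.5 to 107 normalized counts in cells alone and 67.2 to 97.8 in the co-cultures, epithelial markers to 310 to 339 and 264 to 298. No sequences or positions are given.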

Additional observations from a re-analysis of the deposited data

Results flagged for a closer look

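In groups of 4 libraries, 1 library lay far from the others (a gap above Dixon's 95% critical value for 4 values) in 5 of 64 groups of values examined for the named genes. Chance flags about 1 in 20 groups.

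Alone library 1 read 5173 normalized counts for Nfkbia, where the other alone libraries read 3960 to 4077, and 1366 for Lif, where they read 1268 to 1276. Co-culture library 2 read 446 for Nfkbib against 473 to 477 in the other co-cultures, 3213 for Plk2 against 2899 to 2926, and 1891 for Tnfrsf1a against 1811 to 1817. Without alone library 1 the log2 fold change of Nfkbia was 0.02, and the cause of the deviation was not tested.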

How the results depend on the processing

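Among the 9 genes, 1 called higher held under all 16 alternatives, and the 3 called lower became 1 to 3 over the left-out libraries, with 1 without co-culture library 1. Over the left-out libraries, 0 to 7 receptors, adaptors and kinases were higher and 1 to 9 lower, 0 to 1 and 0 to 6 of the other inhibitors, 3 to 6 and 2 to 11 of the targets, and 416 to 1811 and 356 to 1694 of all genes. With array weights the counts were 7 and 7 for receptors, adaptors and kinases, 1 and 5 for other inhibitors, 10 lower among targets, and 1804 and 1674 for all genes. TMM scaling and no filter each left 1 receptor, adaptor or kinase gene higher. Equal replicate numbers did not deviate together (r = -0.0898 to 0.0682 over 4 pairs, and 2 of 8 libraries correlated best with their own number). These few correlations cannot show whether cultures with equal numbers were prepared together. With the replicate block, 0 receptors, adaptors and kinases were higher, 0 other inhibitors lower, 3 targets were higher and 4 lower, and 498 and 400 of all genes were called. Of the named genes, Nfkb2 (limma adjusted p = 0.0628), Lif (0.0541), Irak2, Ripk1, Ptpn6, Cyld and Trim21 lost their calls with it (0.0522 to 0.0868). Signs turned in genes that did not pass. Rela stood at -0.00066 under TMM scaling, -0.00464 with array weights, and ran from -0.00417 to 0.0137 over the left-out libraries. Rel ran from -0.00959 to 0.316, Nfkbia from -0.110 to 0.0183 (0.00293 with array weights), Nfkbib from -0.0426 to 0.0093 (0.00346 with array weights), Chuk from -0.0140 to 0.00579, Ikbkg from -0.0733 to 0.0510 (-0.0627 with array weights) and Cxcl1 from -0.0239 to 0.150. Of 494 values of 31 named genes under the alternatives, 414 kept sign and side of the threshold, 59 lost and 3 gained a call, and 18 turned sign. The median of all genes moved by under 0.01 on the log2 scale. The causes were not tested. Low counts limit the precision of Ptpn6 (14 to 35 reads per library).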

Other observations

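Without alone library 1, further NF-kB pathway genes passed the limma threshold. In that fit 13.4% of all tested genes were called higher and 12.5% lower, more than with all libraries (6.36% and 5.31%). The following are a selection, named after their values were seen. Eda2r, a receptor of ectodysplasin, stood at -0.27 on the log2 scale without that library (adjusted p = 0.000700 by limma) and at 0.01 with it. Traf3, an adaptor that restrains the noncanonical kinase NIK, stood at -0.20 without it and -0.13 with it, and Tollip, an inhibitor of Toll-like receptor signalling, at -0.14 and -0.11. Tnfrsf12a, the TWEAK receptor, stood at 0.19 and 0.14, and Gadd45b, a stress-induced target gene, at 0.16 and 0.06. Csf1, a growth factor of macrophages, stood at -0.14 and -0.12, and Cxcl10, an interferon-induced chemokine at means of 28.5 and 17.9 normalized counts, at -0.69 and -0.62. None of these passed with all libraries.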
